A study of Arabidopsis thaliana with 16 samples.

Results

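HSP17.6C (AT1G53540), HSP17.6B (AT2G29500) and HSP17.4III (AT1G54050) are cytosolic small heat shock protein genes of Arabidopsis thaliana. They were chosen by their locus identifiers, with earlier results of these data known. Each was read through the only probe set that the array annotation assigned to that locus alone. They are 3 of the 13286 genes named on the arrays. HSP17.6C and HSP17.6B belong to class I of the cytosolic small heat shock proteins and HSP17.4III to class III. Probe sets for the class I relatives HSP17.6A, HSP17.8, HSP17.4 and HSP18.1 were not listed with a single gene and were not analysed here, and the share of signal that such relatives may add to the class I probe sets was not tested.

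Small heat shock proteins bind unfolding proteins without using ATP and hold them in a state from which HSP70 and HSP100 chaperones can refold them. Their genes are nearly silent in unstressed vegetative tissue and are switched on by heat shock factors, which bind heat shock elements in the promoters. In Arabidopsis the HSFA1 factors start this response, and HSFA2, itself induced by heat through HSFA1, prolongs it.

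Whole seedlings of 4 genotypes aged 7 days were sampled at 22 °C or after 1 h in a water bath at 37 °C, and each of the 8 groups holds 2 arrays. The hsfa2 seedlings carry a knockout of HSFA2 in Col-0. The QK seedlings lack HSFA1a, HSFA1b, HSFA1d and HSFA1e in a mixed Col-0 and Ws background. The A2QK seedlings are QK with HSFA2 driven by the constitutive CaMV 35S promoter; the design text names a single line, A2QK-10, so effects of that line and of HSFA2 cannot be told apart. WT is Col-0, so the comparisons of QK and A2QK with WT also compare a mixed background with Col-0. The study asked which heat-responsive genes depend mainly on the HSFA1 factors and which on HSFA2.

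Levels are the authors' RMA values on a log2 scale, in which 1 unit is a 2-fold step. The highest value of an array lay between 12.98 and 13.35. Detection above background was not analysed here, so it was not tested whether low 22 °C levels lie above it, and changes are given as measured differences of RMA values. The levels of HSFA2 and of the 4 HSFA1 genes, which would check the genotypes, were not analysed here. RCA, the Rubisco activase gene of green tissue, was the only measured member of 10 shoot markers and stood between 12.20 and 13.09 on all 16 arrays. The mean of 3 measured root markers, out of 7 listed, was 4.06 to 5.13 on the heated and 4.95 to 6.09 on the 22 °C arrays, and 0 of 8 seed markers were measured. The part of these root marker differences in the results was not tested. Seedlings are mixtures of tissues, and a change in the number of responding cells cannot be told apart from a change of RNA in each cell. Nothing in the labels states that replicate arrays were grown as independent cultures. The p-values therefore reflect the scatter of these arrays alone, which may be technical.

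All 3 genes stood within 2 units of the top of the scale on the heated arrays of hsfa2, A2QK and WT, and below 6 units on the 22 °C arrays of hsfa2, QK and WT. HSP17.6C, a class I gene, read 13.07 and 13.05 in heated hsfa2, 12.96 and 13.02 in heated A2QK, 3.54 and 9.50 in heated QK, and 12.84 and 13.04 in heated WT. At 22 °C it read 3.03 and 3.10 in hsfa2, 11.22 and 11.25 in A2QK, 3.33 and 2.88 in QK, and 3.09 and 2.81 in WT. The heated arrays of hsfa2, A2QK and WT overlapped or lay within 0.3 units of each other, the unheated A2QK arrays came next, and the heated QK arrays fell on either side of a wide gap. The heated levels outside QK lay at the ceiling of the arrays, so differences among those groups may not show.

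HSP17.6B, the other class I gene, read 12.65 and 12.57 in heated hsfa2, 12.31 and 12.16 in heated A2QK, 5.19 and 8.79 in heated QK, and 12.45 and 12.48 in heated WT. At 22 °C it read 3.85 and 4.88 in hsfa2, 10.55 and 10.69 in A2QK, 4.55 and 4.79 in QK, and 4.04 and 3.90 in WT. As for HSP17.6C, unheated A2QK was the only 22 °C group above 5 units.

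HSP17.4III, the class III gene, differed from the class I genes in unheated A2QK. It read 12.17 and 12.08 in heated hsfa2, 11.79 and 11.59 in heated A2QK, 4.41 and 8.28 in heated QK, and 11.95 and 11.83 in heated WT. At 22 °C it read 5.95 and 5.99 in hsfa2, 4.45 and 5.10 in A2QK, 2.45 and 4.30 in QK, and 4.17 and 5.17 in WT. Both A2QK values at 22 °C lay inside the range of the WT arrays, and no 22 °C array came above 6 units.

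**Figure D1:**
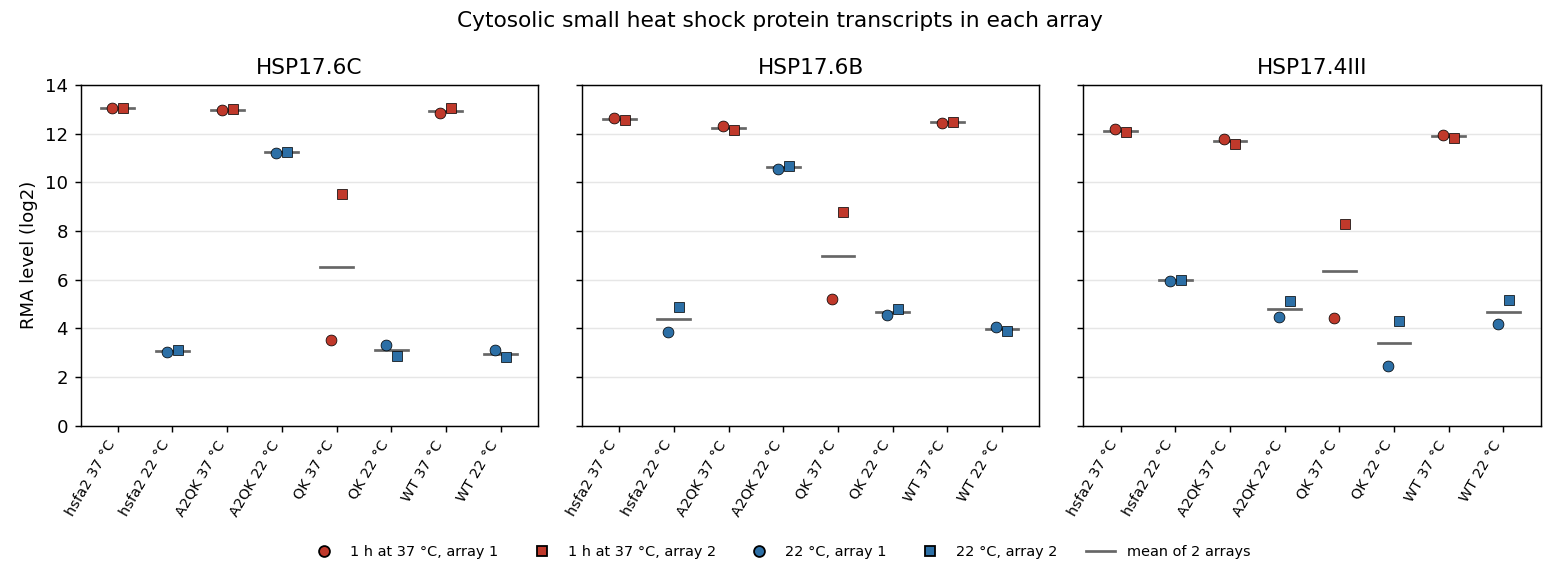
RMA level (log2) of HSP17.6C, HSP17.6B and HSP17.4III on each of the 16 arrays, by genotype and temperature; circles are array 1, squares array 2, and grey bars the mean of 2 arrays. Unheated A2QK lies at 10.55 to 11.25 for the class I genes and at 4.45 to 5.10 for HSP17.4III, and the heated QK arrays lie 3.59 to 5.96 apart.

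Ordered by group mean, HSP17.6C ran from heated hsfa2 (13.06 ± 0.01, SD, n = 2, as for the group means below) through heated A2QK (12.99 ± 0.05), heated WT (12.94 ± 0.14), unheated A2QK (11.23 ± 0.02), heated QK (6.52 ± 4.22), unheated QK (3.10 ± 0.32) and unheated hsfa2 (3.07 ± 0.05) to unheated WT (2.95 ± 0.20). The arrays of heated A2QK and heated WT overlapped, as did those of each neighbouring pair among the unheated QK, hsfa2 and WT groups. For HSP17.6B the 3 lowest groups, unheated QK (4.67 ± 0.17), hsfa2 (4.37 ± 0.73) and WT (3.97 ± 0.10), overlapped with their neighbours and no other neighbouring pair did. For HSP17.4III heated QK (6.35 ± 2.74) overlapped unheated hsfa2 (5.97 ± 0.03), and unheated A2QK (4.77 ± 0.46), WT (4.67 ± 0.71) and QK (3.38 ± 1.31) overlapped in turn.

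Heat raised all 3 genes in WT, where 3.31% of 22746 probe sets were raised, a call being a limma adjusted p under 0.05. The heat response, 37 °C minus 22 °C, of HSP17.6C was 9.99 ± 1.26 (log2 ± SE of the fit, as for all changes below; adjusted p = 0.000401). That of HSP17.6B was 8.49 ± 0.80 (adjusted p = 3.62e-05). That of HSP17.4III was 7.22 ± 0.94 (adjusted p = 0.000512). For HSP17.6C the heated levels of 12.84 and 13.04 lay at the ceiling of the arrays, so its change is given as measured and was not ranked. Within same-numbered arrays the WT responses were 8.41 and 8.58 for HSP17.6B and 7.78 and 6.66 for HSP17.4III. The median change over all probe sets was 0.01, and 0.14 when the array medians were set equal.

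Seedlings without HSFA2 raised the same 3 genes, against 5.61% of probe sets raised in hsfa2. The responses were 9.99 ± 1.26 for HSP17.6C (adjusted p = 0.000346), 8.25 ± 0.80 for HSP17.6B (adjusted p = 4.53e-05) and 6.15 ± 0.94 for HSP17.4III (adjusted p = 0.00133). The response of HSP17.4III was 6.22 and 6.08 within same-numbered hsfa2 arrays, from a 22 °C level 1.31 ± 0.94 above WT (adjusted p = 0.456).

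Between hsfa2 and WT none of the 3 genes was called at 22 °C (7.9% of probe sets called), after heat (8.01%) or in the difference of the heat responses (0.0044%, a single probe set). None had an unadjusted limma p under 0.05 in these comparisons. Both heated hsfa2 arrays nevertheless lay above both heated WT arrays for each of the 3 genes. At 22 °C the same held for HSP17.4III, and the arrays overlapped for HSP17.6C and HSP17.6B. After heat hsfa2 exceeded WT by 0.12 for HSP17.6C, with a 95% interval of -2.65 to 2.88. The heated QK arrays enter this pooled spread: the fitted SD of HSP17.6C was 1.26 with them and 0.18 without them. Without them the intervals narrowed to -0.27 to 0.51 for HSP17.6C, -0.44 to 0.74 for HSP17.6B (difference 0.15) and -0.87 to 1.34 for HSP17.4III (difference 0.23), and 0 of 3 were called. At 22 °C, without the heated QK arrays, HSP17.4III was 1.31 higher in hsfa2, with an interval of 0.21 to 2.41 (adjusted p = 0.144). The intervals of HSP17.6C and HSP17.6B then spanned 0. For HSP17.4III the difference of the heat responses was -1.07. Its interval was -2.63 to 0.49 without the heated QK arrays and -2.09 to -0.061 with the hsfa2 and WT arrays fitted alone. These values do not show that the levels are equal.

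**Figure D2:**
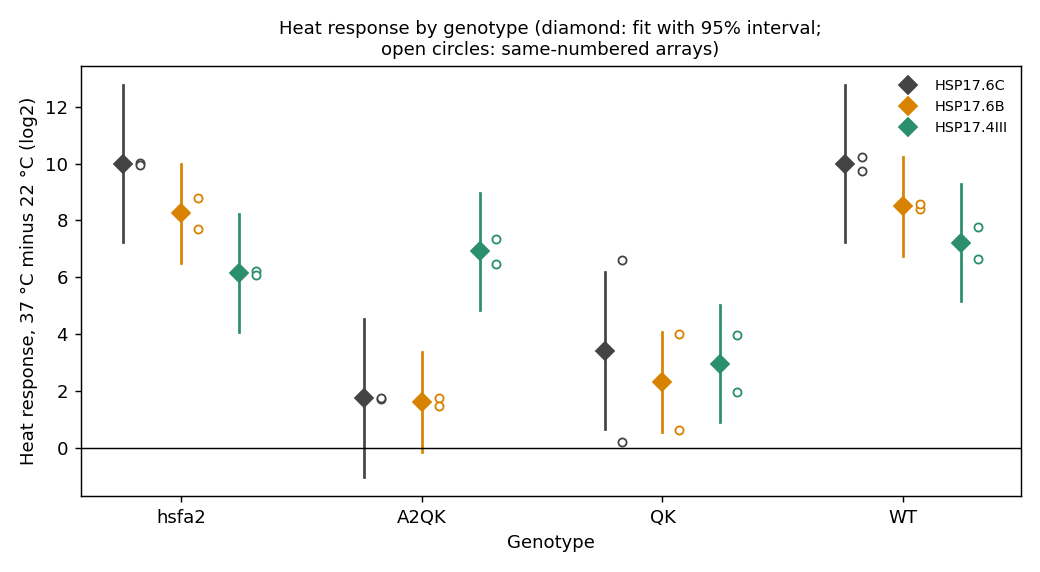
Heat response (37 °C minus 22 °C, log2) of the 3 genes in hsfa2, A2QK, QK and WT; diamonds are the fitted changes with 95% intervals from the fit of all 16 arrays, and open circles the differences between same-numbered arrays. The response of HSP17.4III stays high in A2QK (6.91), whereas those of HSP17.6C and HSP17.6B are 1.75 and 1.62 there.

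In QK, without the 4 HSFA1 factors, none of the 3 genes was called with heat, where 6.86% of probe sets were called, although all 3 had an unadjusted limma p under 0.05. The responses were 3.42 ± 1.26 for HSP17.6C (adjusted p = 0.146), 2.32 ± 0.80 for HSP17.6B (adjusted p = 0.117) and 2.97 ± 0.94 for HSP17.4III (adjusted p = 0.0909). The heated QK arrays gave different answers. Within number 1 the responses were 0.21, 0.64 and 1.96 for HSP17.6C, HSP17.6B and HSP17.4III, and within number 2 they were 6.62, 4.00 and 3.98. Without heated QK array 1 the responses were 6.40, 4.12 and 4.91, and without heated QK array 2 they were 0.43, 0.52 and 1.03. Each of these fits leaves 1 heated QK array and removes the gap between the arrays from the spread. Calls in them cannot test that gap and are not given. With the replicate number as a block HSP17.4III was called (adjusted p = 0.0437).

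The gap between the heated QK arrays ran through the family. Array 2 was higher than array 1 by 3.59 to 5.96 for the 3 genes and by 1.43 to 5.96 for all 8 measured small heat shock proteins that heat raised in WT. For the 3 measured small heat shock proteins that were not called with heat in WT, HSP15.4, HSP14.7 and HSP21.7, array 2 minus array 1 was -0.13 to 0.35. Among 500 probe sets whose WT heat response was called and 2-fold or more, 65 were more than 1 unit higher on array 2 and 3 were more than 1 unit higher on array 1. Over all probe sets array 2 was more than 1 unit higher for 3.4%, close to the 3.46% in heated WT, where the 3 genes differed by at most 0.20 units. That share was 3.98% in unheated WT and 3.86% in unheated QK. It was lower in heated hsfa2 (1.18%), heated A2QK (0.0659%), unheated hsfa2 (0.198%) and unheated A2QK (0.119%). Replicate arrays of WT and QK thus lay further apart than those of hsfa2 and A2QK, while the fit pools the spread over all groups. The heated QK arrays correlated with r = 0.970 across all probe sets, within the 0.959 to 0.995 of the other pairs. In unheated WT array 2 minus array 1 was -0.54 to 1.15 for the same 8 small heat shock proteins, and 1.00 for HSP17.4III. Of the 500 probe sets, 44 were more than 1 unit higher on unheated WT array 2 and 19 on array 1. The cause of these gaps was not tested.

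**Figure D3:**
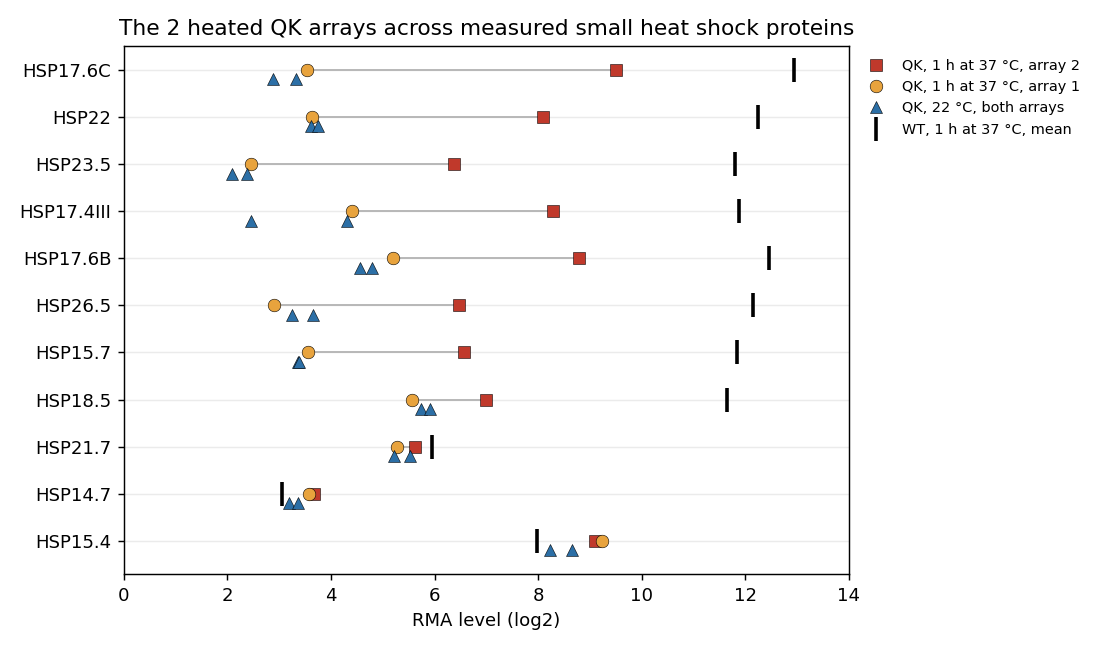
RMA level (log2) of the 11 measured small heat shock proteins on the 2 heated QK arrays, joined by a line, with both unheated QK arrays and the mean of heated WT. For the 8 heat-raised genes heated QK array 1 lies near the unheated QK levels and array 2 lies between these and heated WT.

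After heat all 3 genes were lower in QK than in WT, where 3.33% of probe sets were lower. The differences were -6.42 ± 1.26 for HSP17.6C (adjusted p = 0.00788), -5.47 ± 0.80 for HSP17.6B (adjusted p = 0.00103) and -5.54 ± 0.94 for HSP17.4III (adjusted p = 0.00318). Both heated QK arrays lay below both heated WT arrays for each gene. The differences within number 1 were -9.30, -7.25 and -7.54 for HSP17.6C, HSP17.6B and HSP17.4III, and within number 2 -3.54, -3.69 and -3.54. Over left-out arrays the differences ranged from -9.40 to -3.44 for HSP17.6C, -7.27 to -3.68 for HSP17.6B and -7.48 to -3.61 for HSP17.4III. Leaving out a heated QK array removes the gap between these 2 arrays from the spread, so calls in those fits cannot test it. The 4 arrays fitted alone gave no call, with adjusted p of 0.165 to 0.28 and an SE of 2.05 for HSP17.6C. At 22 °C none of the 3 genes was called between QK and WT (2.19% of probe sets called, 0 of 3 with an unadjusted limma p under 0.05). Without the heated QK arrays the intervals left out 0 for HSP17.6B (0.11 to 1.29, adjusted p = 0.282) and HSP17.4III (-2.39 to -0.19, adjusted p = 0.291). That of HSP17.6C spanned 0 (-0.24 to 0.54). Both unheated QK arrays lay above both unheated WT arrays for HSP17.6B, and the arrays overlapped for HSP17.6C and HSP17.4III.

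The difference between the heat responses of QK and WT was called for HSP17.6B, against 1.06% of probe sets with a smaller response in QK. It was -6.17 ± 1.12 (adjusted p = 0.0161), and the call was lost without WT heat array 1 or 2 (adjusted p = 0.0561 and 0.0562), with the 8 arrays of QK and WT fitted alone (0.333), and with a replicate block within those arrays (0.0934). For HSP17.6C it was -6.57 ± 1.78 (adjusted p = 0.147) and for HSP17.4III -4.25 ± 1.33 (adjusted p = 0.269). Within number 1 the differences were -9.54, -7.76 and -5.83 for HSP17.6C, HSP17.6B and HSP17.4III, and within number 2 -3.61, -4.58 and -2.68. Over left-out arrays the differences ranged from -9.56 to -3.59 for HSP17.6C, -7.97 to -4.38 for HSP17.6B and -6.19 to -2.32 for HSP17.4III. Calls without a heated QK array cannot test the gap between these arrays.

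In A2QK, the QK line that carries 35S:HSFA2, the class I genes stood high without any heat. In unheated A2QK HSP17.6C was 8.13 ± 1.26 above unheated QK (adjusted p = 0.00284) and HSP17.6B was 5.95 ± 0.80 above it (adjusted p = 0.00134). HSP17.4III was 1.40 ± 0.94 above QK and was not called (adjusted p = 0.445). Without the heated QK arrays its interval was 0.30 to 2.50, and it was still not called (adjusted p = 0.114). Both unheated A2QK arrays lay above both unheated QK arrays for HSP17.4III too, so a smaller rise of this gene is not excluded. In the fit of all arrays 5.17% of probe sets were higher in unheated A2QK than in unheated QK. Same-numbered arrays differed by 7.89 and 8.37 for HSP17.6C, by 6.00 and 5.90 for HSP17.6B and by 1.99 and 0.80 for HSP17.4III.

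Against unheated WT the calls split in the same way, with 6.17% of probe sets higher in unheated A2QK. HSP17.6C was 8.29 ± 1.26 (adjusted p = 0.00247) and HSP17.6B 6.65 ± 0.80 (adjusted p = 0.00067) above WT, and HSP17.4III was 0.11 ± 0.94 (adjusted p = 0.966, 95% interval -1.96 to 2.18). Without the heated QK arrays the interval of HSP17.4III was -0.99 to 1.21. The QK and WT comparisons share the A2QK arrays and are not independent. The difference between the class I genes and HSP17.4III was not tested.

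Heat then raised HSP17.4III in A2QK by 6.91 ± 0.94 (adjusted p = 0.000508), the second highest change of all probe sets there, where 6.59% were raised. HSP17.6C responded by 1.75 ± 1.26 (adjusted p = 0.423) and HSP17.6B by 1.62 ± 0.80 (adjusted p = 0.217). Both heated A2QK arrays were above both unheated ones for each gene, by 1.74 and 1.77 for HSP17.6C, 1.76 and 1.48 for HSP17.6B, and 7.34 and 6.48 for HSP17.4III within same-numbered arrays. Without the heated QK arrays all 3 genes were raised, HSP17.6C by 1.75 ± 0.18 (adjusted p = 9.71e-05) and HSP17.6B by 1.62 ± 0.27 (adjusted p = 0.00219), and dropping either of these arrays gave the same count of 3. The A2QK arrays fitted alone also gave 3 calls.

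After heat A2QK exceeded QK for all 3 genes, against 6.2% of probe sets higher. The differences were 6.47 ± 1.26 for HSP17.6C (adjusted p = 0.00594), 5.25 ± 0.80 for HSP17.6B (adjusted p = 0.0012) and 5.34 ± 0.94 for HSP17.4III (adjusted p = 0.00327). The lowest heated A2QK array lay above the highest heated QK array for each gene. Over left-out arrays the differences ranged from 3.49 to 9.45 for HSP17.6C, 3.45 to 7.04 for HSP17.6B and 3.40 to 7.28 for HSP17.4III. Calls without a heated QK array again cannot test the gap between these arrays. With the 4 heated arrays fitted alone none passed (adjusted p of 0.0594 to 0.11), and the SE was 1.88 for HSP17.6C.

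Between heated A2QK and heated WT, and between heated A2QK and heated hsfa2, none of the 3 genes was called, where 11.5% and 13.4% of probe sets were. None had an unadjusted limma p under 0.05 in either comparison. For HSP17.6B and HSP17.4III both heated A2QK arrays nevertheless lay below both heated WT and both heated hsfa2 arrays, and for HSP17.6C the A2QK and WT arrays overlapped. The differences from WT were 0.05, -0.23 and -0.20 for HSP17.6C, HSP17.6B and HSP17.4III. Without the heated QK arrays their 95% intervals were -0.34 to 0.44, -0.82 to 0.36 and -1.30 to 0.90. The differences from hsfa2 were -0.07, -0.38 and -0.44, with intervals of -0.46 to 0.32, -0.97 to 0.21 and -1.54 to 0.67 without the heated QK arrays. With the arrays of A2QK and hsfa2 after heat fitted alone, the intervals left out 0 for HSP17.6B (-0.75 to -0.014) and HSP17.4III (-0.82 to -0.055), with adjusted p of 0.141 and 0.113. These values do not show equal levels. A2QK and hsfa2 contrast plants that rely on added HSFA2 without the HSFA1 factors with plants that have HSFA1 and no HSFA2.

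Set against heated WT, unheated A2QK was lower for HSP17.4III, with a difference of -7.12 ± 0.94 (adjusted p = 0.000316), where 8.41% of probe sets were lower. HSP17.6C gave -1.70 ± 1.26 (adjusted p = 0.372) and HSP17.6B -1.84 ± 0.80 (adjusted p = 0.123), and both were called without the heated QK arrays (adjusted p = 8.66e-05 and 0.000812). Every unheated A2QK array lay below every heated WT array for each gene.

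The heat response of A2QK was smaller than that of WT for HSP17.6C (-8.23 ± 1.78, adjusted p = 0.043) and HSP17.6B (-6.88 ± 1.12, adjusted p = 0.00939), against 0.567% of probe sets with a smaller response. For HSP17.4III the difference was -0.31 ± 1.33 (adjusted p = 0.988). The call for HSP17.6C was lost when any of the 14 arrays outside heated QK was left out (adjusted p of 0.0525 to 0.166), and the call for HSP17.6B without A2QK 22 °C array 2 (adjusted p = 0.052) or A2QK heat array 2 (adjusted p = 0.0508). Without both heated QK arrays the 2 calls had adjusted p = 5.93e-08 and 9.75e-06. Unheated A2QK already stood at 11.23 for HSP17.6C and 10.62 for HSP17.6B, and the highest value of an array lay between 12.98 and 13.35. The scale therefore left less room for a rise in A2QK than the WT response covered. The part of this limit in the smaller responses was not tested.

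The heat responses of A2QK and QK did not differ at the threshold for any of the 3 genes, against 2.02% of probe sets called, and 1 gene had an unadjusted limma p under 0.05. The differences were -1.66 ± 1.78 for HSP17.6C, -0.70 ± 1.12 for HSP17.6B and 3.94 ± 1.33 for HSP17.4III (adjusted p = 0.818, 0.901 and 0.205). For the class I genes the sign depended on the heated QK array: within number 1 they were 1.53 and 1.11, and within number 2 -4.85 and -2.52. HSP17.4III responded more in A2QK within both numbers, by 5.39 and 2.50. Without heated QK array 1 the differences were -4.64, -2.50 and 2.01 for HSP17.6C, HSP17.6B and HSP17.4III. Without array 2 they were 1.32, 1.09 and 5.88. Calls in these fits cannot test the gap between the heated QK arrays and are not given.

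The wider list of small heat shock proteins had 11 measured members of 19, which include the 3 genes. In WT 8 were raised by heat, with a list median of 7.37, against 3.31% of all probe sets. The other 5 were HSP26.5 and HSP23.5, listed as mitochondrial proteins, HSP22 of the endoplasmic reticulum, HSP15.7 of the peroxisome and HSP18.5. In hsfa2 8 rose (5.61% of all probe sets), in A2QK 5 (6.59%) and in QK 0 (6.86% called either way), where 6 had an unadjusted limma p under 0.05. The 5 in A2QK were HSP17.4III, HSP23.5 (5.68 ± 0.88), HSP26.5 (3.76 ± 0.79), HSP15.7 (3.42 ± 0.66) and HSP18.5 (2.50 ± 0.38).

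The family spread widely in unheated A2QK. Against unheated QK 6 of 11 were higher, beside 5.17% of all probe sets: HSP17.6C, HSP22 (7.31 ± 0.95), HSP17.6B, HSP26.5 (5.12 ± 0.79), HSP15.7 (4.41 ± 0.66) and HSP18.5 (adjusted p = 0.00908). HSP23.5 (3.04 ± 0.88, adjusted p = 0.0536) missed the threshold, and HSP17.4III had the smallest difference of the 8 heat-raised genes. HSP22 read 12.16 on both heated A2QK arrays and 11.04 and 10.93 on the unheated ones. HSP23.5 read 11.02 and 10.87 in heated A2QK and 5.57 and 4.97 in unheated A2QK. HSP18.5 alone among the heat-raised genes was called lower in heated A2QK than in heated WT (-1.34 ± 0.38, adjusted p = 0.0441). Both heated A2QK arrays also lay below both heated WT arrays for HSP23.5, HSP15.7 and HSP22, as for HSP17.6B and HSP17.4III. They overlapped for HSP26.5 and HSP17.6C.

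**Figure D4:**
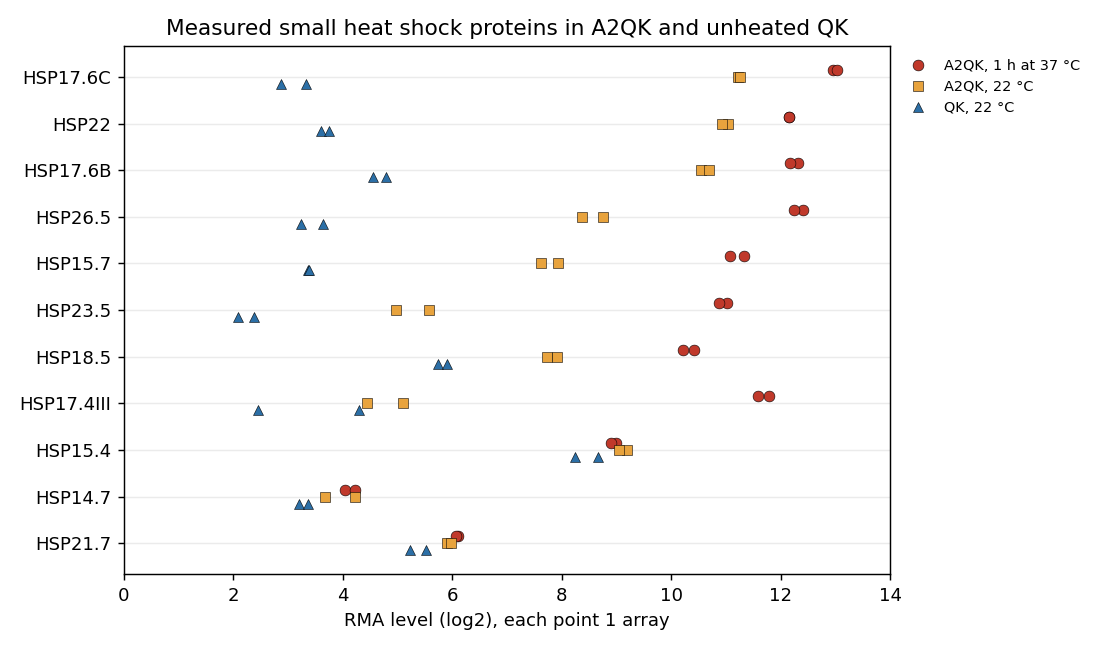
RMA level (log2) of the 11 measured small heat shock proteins in heated A2QK, unheated A2QK and unheated QK, each point 1 array, sorted by the difference between unheated A2QK and unheated QK. HSP17.6C, HSP22 and HSP17.6B lie above 10 units in unheated A2QK, and HSP17.4III lies near 5.

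Across the 16 arrays HSP17.6C and HSP17.6B had a Pearson correlation of 0.995 with each other, and correlations of 0.818 and 0.832 with HSP17.4III. Among 13435 other single-gene probe sets the profiles most like HSP17.6C were those of HSP22 (0.996), HSP17.6B, HSP26.5 (0.977), HSP15.7 (0.965) and AT1G72660 (0.931). The same 4 non-member genes stood nearest to HSP17.6B, led by HSP22 (0.993) and HSP26.5 (0.985). HSP17.4III was most like FES1A (0.967), which encodes an HSP70 nucleotide exchange factor, and HOP3 (0.964), which encodes an adaptor between HSP70 and HSP90. AT1G30070 (0.963), AT1G71000 (0.957) and HSP23.5 (0.955) came next. These are descriptions over arrays that share the same heat and genotype steps.

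FES1A stood at 10.19 ± 0.05 in heated A2QK and 5.88 ± 0.25 in unheated A2QK, and HOP3 at 10.36 ± 0.12 and 5.35 ± 0.04. Of 9 measured co-chaperones out of 13 listed, 7 rose with heat in WT (3.31% of all probe sets), 7 in hsfa2 (5.61%) and 7 in A2QK (6.59%). In QK 0 were called with heat (6.86% of all probe sets called either way), where 6 had an unadjusted limma p under 0.05. Against unheated QK, 4 co-chaperones were higher in unheated A2QK, beside 5.17% of all probe sets higher. There 1 was lower, SGT1A (-1.14 ± 0.22, adjusted p = 0.00887). The share of all probe sets lower is not given here, so this count has no background beside it. Of the HSP70 list HSC70-2 and HSC70-3 were measured, and both rose in WT (3.31% of all probe sets) and in hsfa2 (5.61%). In A2QK 1 rose (6.59%) and in QK 0 were called (6.86% called either way). After heat 1 was lower in A2QK than in WT (11.5% called either way). HSC70-2 stood at 5.84 ± 0.19 in heated A2QK and 8.80 ± 0.46 in heated WT. The unheated WT arrays were themselves apart for some of these genes. Array 2 minus array 1 there ran from -0.76 (HOP1) to 2.68 (ROF2) among the co-chaperones. It was 1.48 for HSC70-2 and 2.86 for HSC70-3. The heat shock factors and the HSP90 and HSP100 genes of the lists were not analysed here.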

How the data were processed

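Biotin-labelled cRNA from total RNA of 16 whole-seedling samples was hybridised to Affymetrix arrays. The deposited log2 values were made by the authors with RMA, per the submitters' processing notes; the sources used here give no version. This normalization gives the arrays a similar distribution, which would reduce a change shared by most transcripts. Arrays have no read depth, and 2 per group limit the precision.

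Of 22810 probe sets, 64 controls were left out. The probe annotation gave 13513 tested probe sets with 1 gene, 503 with several and 8730 unlisted. Of the first, 13436 were matched by gene ID to RefSeq loci (TAIR10.1). Using limma 3.58.1 under R 4.3.3 (lmFit, eBayes), each probe set got a mean per group over all 16 arrays, 18 contrasts, and Benjamini-Hochberg adjustment over 22746 probe sets, two-sided, called under 0.05. The fit had 8 residual and 3.37 prior degrees of freedom; it was tested on simulated data. Group errors are SDs.

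Named were the 3 genes, measured members of the gene lists, and for each gene the 5 single-gene probe sets with the highest Pearson correlation over the arrays. The genes and lists were chosen with earlier results of these data known. Alternatives were equal array medians, quantile normalization, the brighter probe sets alone, eBayes with trend and robust, the compared arrays alone, no heated QK arrays, a replicate block, and each array left out.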

Additional observations from a re-analysis of the deposited data

Results flagged for a closer look

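In 3 cases the heat response of a gene differed between genotypes by the interaction test of limma. The response of HSP17.6B was smaller in QK than in WT, by -6.17 ± 1.12 (adjusted p = 0.0161). The response of HSP17.6C was smaller in A2QK than in WT, by -8.23 ± 1.78 (adjusted p = 0.043), and that of HSP17.6B by -6.88 ± 1.12 (adjusted p = 0.00939). The call for HSP17.6C was lost in 14 of 16 fits that left out 1 array and with trend and robust eBayes (adjusted p = 0.0892), and that for HSP17.6B in 2 of the fits that left out 1 array. The QK call was lost without either heated WT array, with the QK and WT arrays fitted alone (adjusted p = 0.333) and with a replicate block within them (0.0934). In A2QK both genes stood above 10 units before heat, and in heated WT they stood at 12.94 ± 0.14 and 12.46 ± 0.02 (SD, n = 2). The highest value of an array lay between 12.98 and 13.35, and the part of this limit in the smaller A2QK responses was not tested. Groups of 2 arrays are too small to test whether a single array stands apart, although the heated QK arrays differed by 5.96 units for HSP17.6C.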

How the results depend on the processing

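Counts below are of the 3 genes called. Equal array medians, quantile normalization and the brighter probe sets alone kept all 18 counts within 1.5 times. With trend and robust eBayes the smaller A2QK than WT response was called for 1. With the compared arrays alone the counts were 3 for heat in A2QK, 3 for unheated A2QK against heated WT, and 0 for heated QK against WT, heated A2QK against QK, and the QK and WT responses. Without both heated QK arrays they were 3 for heat in A2QK and 3 for unheated A2QK against heated WT. The labels' replicate numbers do not establish pairing: deviations of same-numbered arrays correlated above 0.1 in 9 of 28 group pairs, among them all pairs of WT and QK groups (0.535 to 0.795). A replicate block called 1 gene for heat in QK (HSP17.4III), and a replicate block within the WT and QK arrays, chosen after seeing the data, called 0 for the QK and WT responses; no other count changed by over 1.5 times.

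Leaving out each array gave counts of 0 to 3 for heat in QK, 1 to 3 for heat in A2QK and for unheated A2QK against heated WT, 0 to 3 for the difference of the QK and WT responses, and 0 to 2 for those of A2QK and QK and of A2QK and WT. Signs turned only for results that were not called with all 16 arrays. Most lay near 0, but the A2QK minus QK responses of HSP17.6C and HSP17.6B did not. Counts from fits without a heated QK array cannot test the gap between the heated QK arrays. For HSP17.4III, unheated A2QK minus WT was -0.00326 with equal medians, -0.016 with quantile normalization and -0.39 to 0.61 over left-out arrays. With quantile normalization HSP17.6C gave 0.12 for heated A2QK minus hsfa2 and -0.090 for the hsfa2 minus WT response. Over left-out arrays HSP17.6C ranged from -0.021 to 0.26 (hsfa2 minus WT, 22 °C), -0.073 to 0.38 (QK minus WT, 22 °C), -0.050 to 0.15 (A2QK minus WT, heat), -0.14 to 0.14 (hsfa2 minus WT response) and -4.64 to 1.32 (A2QK minus QK response). HSP17.6B ranged from -0.12 to 0.91 (hsfa2 minus WT, 22 °C), -0.76 to 0.27 (hsfa2 minus WT response) and -2.50 to 1.09 (A2QK minus QK response), and the A2QK minus WT response of HSP17.4III from -0.81 to 0.19. The cause of these changes was not tested, except that fewer arrays enter some fits.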
